A study of Mus musculus with 4 samples.

Results

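Open chromatin near Cubn and 8 genes used as endoderm markers or as partners of cubilin was compared between day 2 (d2) and day 4 (d4) of a cardiogenic and then endothelial differentiation of mouse embryonic stem cells. The genes were Cubn, Lrp2, Amn, Dab2, Foxa1, Foxa2, Hnf4a, Afp and Hhex. Cubn was chosen by the regions gained and lost near it in these same libraries, so the calls at Cubn are a description and carry no test. ATAC-seq, which reads where the Tn5 transposase can cut DNA, gave 1 list of called peaks for each library. Peaks of the 4 lists that overlapped were merged into regions, and each region was given to the protein-coding gene with the nearest transcript start, if that start lay within 100 kb. The 9 genes held 33 regions, out of 35041 regions within 100 kb of a coding start and 40910 regions in all, and 8 of the 9 genes held at least 1 region.

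All libraries came from the wild-type ES-E14TG2a line, with 2 separate differentiation experiments at each day. The d2 libraries (d2 replicate 1 and d2 replicate 2) were embryoid bodies in serum-free medium before any inducing factor had been added. The d4 libraries (d4 replicate 1 and d4 replicate 2) were taken after those bodies had been dissociated and reaggregated with Activin A, BMP4 and VEGF. The libraries listed 26865 and 24544 peaks at d2 and 22511 and 21299 peaks at d4. Background coverage, solved from the peak lists, put the d2 libraries at 0.753 and 0.640 of the depth of d4 replicate 1, and d4 replicate 2 at 0.985 of it. A region was called gained if both d4 lists and no d2 list held a peak in it, and lost if both d2 lists and no d4 list did. No test was made between the days, since the peak lists hold no reads for a count model and the smallest p that an exact two-sided permutation test of 2 libraries against 2 can give is 0.333. The intervals given below cover counting error only.

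Cubilin, encoded by Cubn, is a large endocytic receptor on the absorptive cells of the visceral endoderm, the kidney tubule and the gut. It has no membrane anchor of its own. Amnionless (Amn) anchors it, megalin (Lrp2) internalises with it, and Dab2 is the adaptor that ties megalin to the endocytic machinery. Foxa1 and Foxa2 are forkhead factors of the definitive endoderm, Foxa2 also of node and floor plate. Hnf4a is a nuclear receptor of visceral endoderm and liver, Hhex a homeobox factor of anterior endoderm that endothelial precursors also use, and Afp a serum protein of yolk sac and fetal liver. An open region near a marker gene shows neither that the gene is transcribed nor that the cell type is present, and no RNA was analysed here.

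The sequences below are 200 bases of the mm10 plus strand centred on the summit of the strongest peak, shown because these regions carry the differences described at Cubn, Lrp2 and Foxa2. The regions of a gene are numbered along the chromosome. Matches to the motifs searched on both strands are in capitals. They are, for the sequences shown, the GATA motif (those letters after A or T and before A or G), the AP-1 motif TGANTCA with C or G at its centre, the TEAD motif ACATTCC and the E-box CAGCTG. Cubn 2 and Cubn 4 were gained and lie in intron 27 of Cubn. Cubn 6 was lost and lies upstream of Cubn. Lrp2 2 and Foxa2 2 were the gained regions of their genes.
Cubn 2, chr2:13407340-13407539: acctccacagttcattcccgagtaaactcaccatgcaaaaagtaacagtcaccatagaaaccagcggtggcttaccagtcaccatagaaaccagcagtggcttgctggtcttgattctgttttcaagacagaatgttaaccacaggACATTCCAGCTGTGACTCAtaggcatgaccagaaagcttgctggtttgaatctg
Cubn 4, chr2:13413555-13413754: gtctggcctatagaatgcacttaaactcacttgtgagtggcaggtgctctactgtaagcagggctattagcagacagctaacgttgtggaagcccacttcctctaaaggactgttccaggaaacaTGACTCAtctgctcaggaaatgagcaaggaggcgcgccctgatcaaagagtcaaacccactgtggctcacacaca
Cubn 6, chr2:13515017-13515216: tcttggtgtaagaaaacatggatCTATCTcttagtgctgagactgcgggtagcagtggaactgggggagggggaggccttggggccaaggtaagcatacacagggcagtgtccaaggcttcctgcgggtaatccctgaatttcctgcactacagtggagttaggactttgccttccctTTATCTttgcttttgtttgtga
Lrp2 2, chr2:69563707-69563906: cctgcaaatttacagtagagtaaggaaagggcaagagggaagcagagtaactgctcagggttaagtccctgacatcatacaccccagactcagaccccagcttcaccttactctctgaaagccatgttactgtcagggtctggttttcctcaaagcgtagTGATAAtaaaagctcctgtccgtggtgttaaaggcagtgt
Foxa2 2, chr2:148013630-148013829: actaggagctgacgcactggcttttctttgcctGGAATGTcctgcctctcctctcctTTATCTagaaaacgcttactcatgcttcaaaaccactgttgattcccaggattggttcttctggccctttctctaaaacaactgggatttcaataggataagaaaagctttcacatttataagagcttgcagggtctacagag

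For comparison, 3 more sequences were picked after values were seen. Foxa2 10 was the lost region of the other 8 genes whose weaker d2 peak had the highest fold enrichment. The Cubn intron 28 and intron 31 regions were also gained, but lie 100.28 and 119 kb from the start of Cubn and are not among the 33 regions.
Foxa2 10, chr2:148053414-148053613: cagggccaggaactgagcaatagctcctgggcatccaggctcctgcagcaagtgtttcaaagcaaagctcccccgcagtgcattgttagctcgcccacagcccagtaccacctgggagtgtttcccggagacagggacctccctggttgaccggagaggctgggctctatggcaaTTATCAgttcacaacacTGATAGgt
Cubn intron 28, chr2:13391197-13391396: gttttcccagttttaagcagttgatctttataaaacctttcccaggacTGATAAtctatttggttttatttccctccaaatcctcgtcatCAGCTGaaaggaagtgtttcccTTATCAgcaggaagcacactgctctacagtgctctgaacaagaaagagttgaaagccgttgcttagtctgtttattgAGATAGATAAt
Cubn intron 31, chr2:13372281-13372480: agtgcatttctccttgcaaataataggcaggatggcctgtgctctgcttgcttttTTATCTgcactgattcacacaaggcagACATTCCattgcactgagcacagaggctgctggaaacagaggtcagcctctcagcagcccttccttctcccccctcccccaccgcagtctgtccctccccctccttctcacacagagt
The other lost region of Cubn, Cubn 5, reaches into a UTR of Trdmt1 and is named only.

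Of the 33 regions, 4 were gained, 8 were lost, 3 were called in all 4 libraries and 18 had another pattern. Over all regions within 100 kb of a coding start, 8.48% were gained, 13.2% were lost and 31.9% were called in all 4 libraries. For the 9 genes the shares were 12.1% gained and 24.2% lost, but these hold the regions Cubn was chosen for. Without Cubn, 2 of 27 regions were gained (7.41%) and 6 were lost (22.2%), so the gained share then lay below that of all regions. Of those 6 lost regions 4 belonged to Foxa2 alone, so the lost share rests largely on 1 gene. Of the 18 regions with another pattern, 14 had a peak in 1 library only (34.5% of all regions did), 2 had a peak in 3 libraries, and 2 had a peak in 1 library of each day. The d2 libraries called 19 and 18 of the 33 regions (57.6% and 54.5%) and the d4 libraries 12 and 11 (36.4% and 33.3%). Of all regions they called 66.0%, 63.3%, 55.4% and 52.9% in the same order, so fewer were called at d4 there too, by a smaller margin. The part of list length in the counts of the 9 genes was not tested. Without d2 replicate 1 or without d2 replicate 2 the lost regions numbered 14, and without d4 replicate 2 the gained regions numbered 7.

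**Figure D1:**
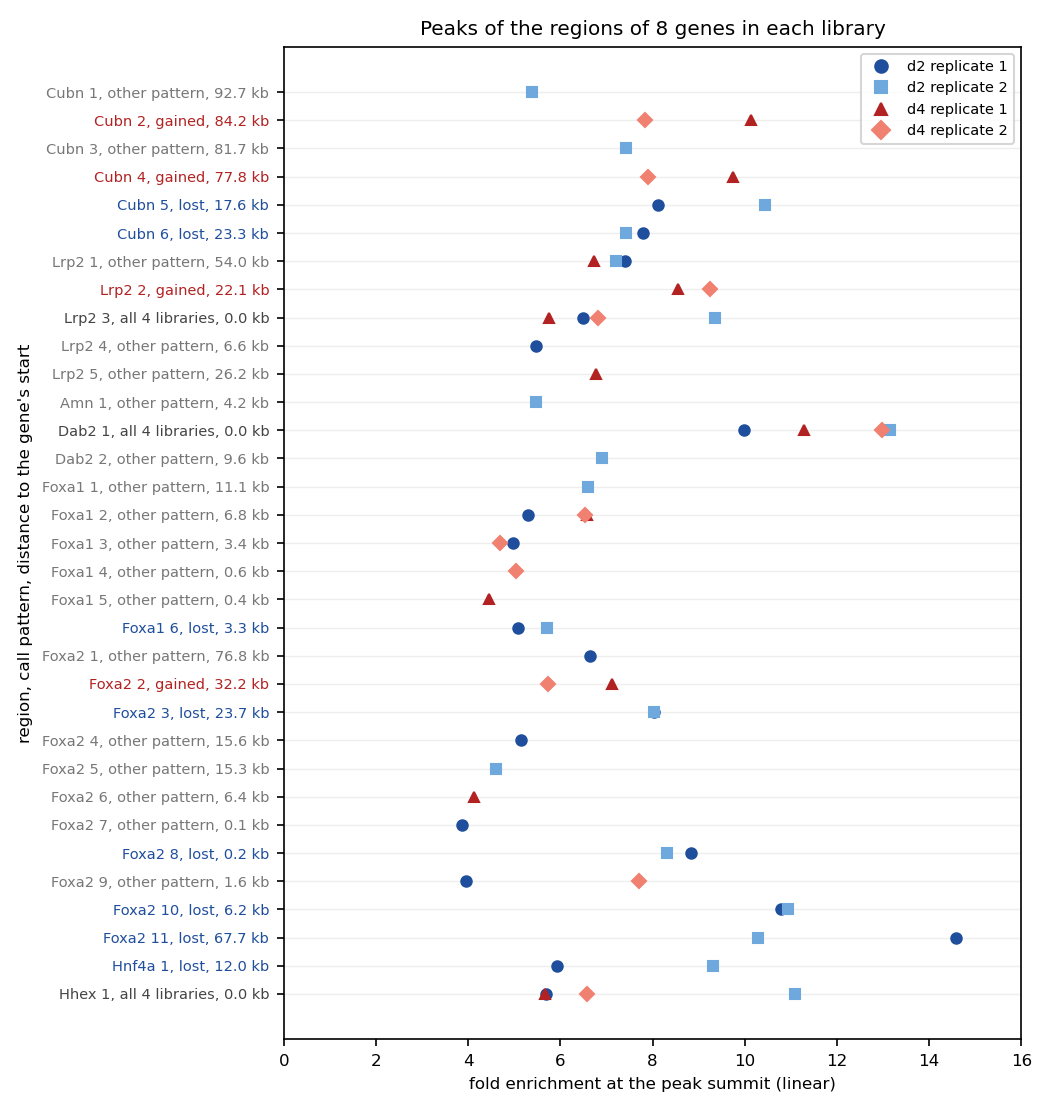
Fold enrichment at the peak summit (x axis, linear) of each of the 33 regions (y axis, with the call pattern and the distance to the nearest coding start of the gene), 1 point for each library with a peak and no point where none was called. Gained regions hold d4 points only and lost regions d2 points only, and fold enrichments ran from 3.86 to 14.6.

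Cubn lay on the minus strand of chromosome 2 (chr2:13276338-13491813, a body of 215 kb) and held 2 gained, 2 lost and 2 other regions, none of them at its start. The region nearest to the start was 17.6 kb away. Both gained regions assigned to Cubn lay inside the gene, downstream of the start in intron 27. Both lost regions lay upstream, inside the neighbouring gene Trdmt1, a tRNA methyltransferase gene. This split did not hold for the whole locus. Another gained region (chr2:13558582-13558933), assigned to Trdmt1, lay 66.8 kb upstream of the Cubn start. It had fold enrichments of 11.6 and 15.3 in d4 replicates 1 and 2. Genes with at least 2 gained and at least 2 lost regions made up 0.578% of the 15050 genes with a region, and genes with at least 1 of each 4.94%. Among the 359 genes with 6 regions, as many as Cubn has, 10 held at least 2 of each. Cubn was chosen on this count, so its place among those 10 is no finding. The count of Cubn depended on the choice of starts and of distance. With transcript starts of any type, noncoding transcripts of the same gene included, Cubn had 4 gained regions. It had 0 gained regions within 50 kb of a coding start, and 4 lost regions without d2 replicate 1.

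Cubn 2 (chr2:13407349-13407578, 84.2 kb from the start) reached fold enrichments of 10.1 and 7.83 in d4 replicates 1 and 2 and had no peak at d2. Its summit pileups were 26 (95% exact Poisson interval 17.0 to 38.1) and 15 (8.40 to 24.7). The intervals of the replicates overlapped, although each value lay outside the interval of the other. Cubn 4 (chr2:13413564-13413966, 77.8 kb from the start) had fold enrichments of 9.74 and 7.90 at d4, on pileups of 24 (15.4 to 35.7) and 16 (9.15 to 26.0). It too had no peak at d2. The 2 gained regions were 5.99 kb apart, and Cubn 3, a region with a peak in d2 replicate 2 only at a fold enrichment of 7.42, lay between them. If the d4 coverage of Cubn 2 were carried to the depth of the d2 libraries, its pileup would be 9.74 to 19.6, where the smallest pileup called at d2 over a local background as high, relative to the library's, was 7. The same values for Cubn 4 were 10.4 to 18.1 and 7. Both ranges leave out the counting error of the pileups.

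Cubn 5 (chr2:13509435-13509907), 17.6 kb upstream of Cubn and within a transcript end of Trdmt1, had fold enrichments of 8.11 and 10.4 in d2 replicates 1 and 2 and no peak at d4. Its summit pileups were 13 (6.92 to 22.2) and 16 (9.15 to 26.0). Cubn 6 (chr2:13515075-13515262), 23.3 kb upstream in intron 10 of Trdmt1, had fold enrichments of 7.79 and 7.42 at d2 on pileups of 12 (6.20 to 20.96) and 10 (4.80 to 18.4). At d4 it had no peak. The 2 lost regions were 5.17 kb apart. Carried to the d4 depth, their pileups would be 17.0 to 25.0 for Cubn 5 and 15.4 to 15.9 for Cubn 6. The smallest pileups called at d4 were 8 and 7 over backgrounds as high as theirs. The carried ranges use background coverage alone and leave out the counting error. They also make no allowance for peak height, the summit pileup over the library's background. Its median over regions called in all 4 libraries was 38.7 and 55.9 at d2 and 33.1 and 32.3 at d4.

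Across the whole body of Cubn, 10 regions were called, all intronic. Of these 4 were gained, 0 were lost and 6 had a peak in 1 library only, and 4 of the 10 were assigned to Cubn. The distance limit split the gained regions. The gained region of intron 28 (chr2:13390993-13391529) lay 100.28 kb from the start, just outside the limit, while the assigned region farthest from the start, Cubn 1, lay at 92.7 kb with a peak in d2 replicate 2 only, at a fold enrichment of 5.39. The intron 28 region had fold enrichments of 7.82 and 8.00 in the d4 libraries. The intron 31 region (chr2:13372282-13372654, 119 kb from the start) had 10.3 and 13.6, on pileups of 24 and 29. Both had d4 folds close to those of Cubn 2 and Cubn 4 or above them, and no d2 peak. The stretch between the start and Cubn 4 held no peak in any library.

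**Figure D2:**
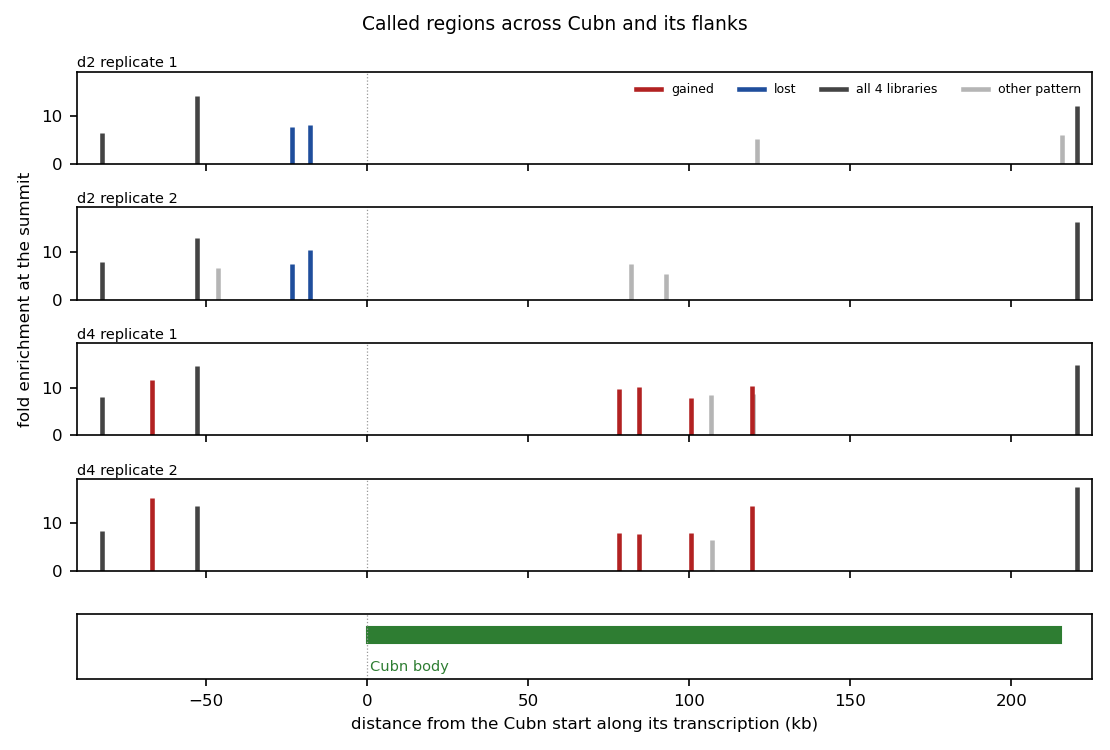
Fold enrichment at the summit (y axis) of every region called in the body of Cubn and its flanks, by the distance of the region's midpoint from the start along the direction of transcription (x axis, kb), in 1 panel for each library, with the body of Cubn as a green bar. The 4 gained regions inside the gene (red) appear in the d4 panels between 77.8 and 119 kb, and the 2 lost regions (blue) in the d2 panels at 17.6 and 23.3 kb upstream, where distances are to the nearest edge. A gained region assigned to Trdmt1 appears in the d4 panels at 66.8 kb upstream.

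The motif content of the gained and lost regions of Cubn was set beside that of all distal regions of the same call, since sequence was not used to choose the gene. GATA matches were present in 63.2% of the 2518 distal gained regions and in 17.7% of the 2915 distal lost regions. Cubn 2 and Cubn 4 held none, whereas Cubn 5 held 1 and Cubn 6 held 2. AP-1, the motif bound by Fos and Jun dimers, matched in both Cubn 2 and Cubn 4, against 10.0% of distal gained and 4.29% of distal lost regions. It also matched in Cubn 3, which had its peak at d2 and lies between them, so the match was not particular to the gained regions. Cubn 2 also held a TEAD match, as did 11.4% of distal gained and 2.88% of distal lost regions, directly followed by an overlapping E-box match and then the AP-1 match. The gained regions of introns 28 and 31, past the limit, held 4 and 1 GATA matches. Of the 4 gained regions in the body of Cubn, 2 had a GATA match, 2 an AP-1 match and 2 a TEAD match, and of the 6 called in 1 library 5 had a GATA match, 1 an AP-1 match and none a TEAD match. These counts are too small to set against the shares with a test, and a match is not a bound site.

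The pattern of Cubn, by counts of gained, lost, shared and other regions, was the same in Acvr1, a type I receptor of the BMP and activin family, and in Dll1, a Notch ligand. Each held 2 gained, 2 lost and 2 other regions. At a summed difference of 1 region, the list grew to 17 genes, among them Arsj, Ccdc190, Dsp, Egfl6 and Fam129b. The likeness is over 4 counts in 1 gene each and has no error.

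Lrp2 (megalin) held 5 regions, of which 1 was gained, none lost and 1 called in all 4 libraries. Lrp2 2 (chr2:69563604-69563911), in intron 1 and 22.1 kb from the start, was the gained one, with fold enrichments of 8.54 and 9.24 in d4 replicates 1 and 2 on pileups of 19 (11.4 to 29.7) and 20 (12.2 to 30.9). The replicates lay within each other's intervals. Lrp2 1, in intron 9 at 54.0 kb, was called in 3 libraries, with fold enrichments of 7.41 and 7.21 at d2 and 6.72 in d4 replicate 1. The other 2 regions, Lrp2 4 and Lrp2 5, each had a peak in 1 library.

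Lrp2 3 covered the start of Lrp2 (chr2:69585500-69586320) in all 4 libraries. Its fold enrichments were 6.50 and 9.36 in the d2 libraries and 5.75 and 6.81 in the d4 libraries. As the summit pileup over the background coverage of the library, called the height here, it stood at 28.2 and 53.8 at d2 and at 17.2 and 22.9 at d4. The d4 mean, 20.0 ± 3.99 (SD, n = 2), was 0.489 of the d2 mean, 41.0 ± 18.1 (SD, n = 2), and the days did not overlap. Regions called in all 4 libraries had a median height of 38.7 and 55.9 at d2 and of 33.1 and 32.3 at d4, so the heights of these regions as a whole were also lower at d4. Divided by that median in each library, Lrp2 3 stood at 0.727 and 0.963 at d2 and at 0.520 and 0.708 at d4, a ratio of 0.727, with 0.708 and 0.727 as the nearest values of the days.

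Dab2, the adaptor of megalin, had a region called in all 4 libraries over some of its starts and no gained or lost region. Dab2 has 11 distinct coding starts. Dab2 1 (chr15:6386405-6387089) covered internal ones, its midpoint 86.96 kb downstream of the first start, at which no region was called. It had fold enrichments of 9.98 and 13.2 at d2 and 11.3 and 13.0 at d4. Its heights of 31.7 and 45.5 at d2 and 37.1 and 47.0 at d4 overlapped, with a ratio of the means of 1.09. On the scale of the other regions called in all 4 libraries the days no longer overlapped, at 0.818 and 0.815 at d2 and 1.12 and 1.46 at d4, a ratio of 1.58. Dab2 2, in intron 10, had a peak in d2 replicate 2 only.

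Amn, whose product anchors cubilin, held 1 region (chr12:111275281-111275461). It lay over an exon 4.19 kb from the coding start, but within 1000 bp of another annotated transcript start. It had a peak in d2 replicate 2 only, with a fold enrichment of 5.48. No region was called at the coding start of Amn or of Cubn, while a start of Lrp2 and internal starts of Dab2 were called in every library.

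**Figure D3:**
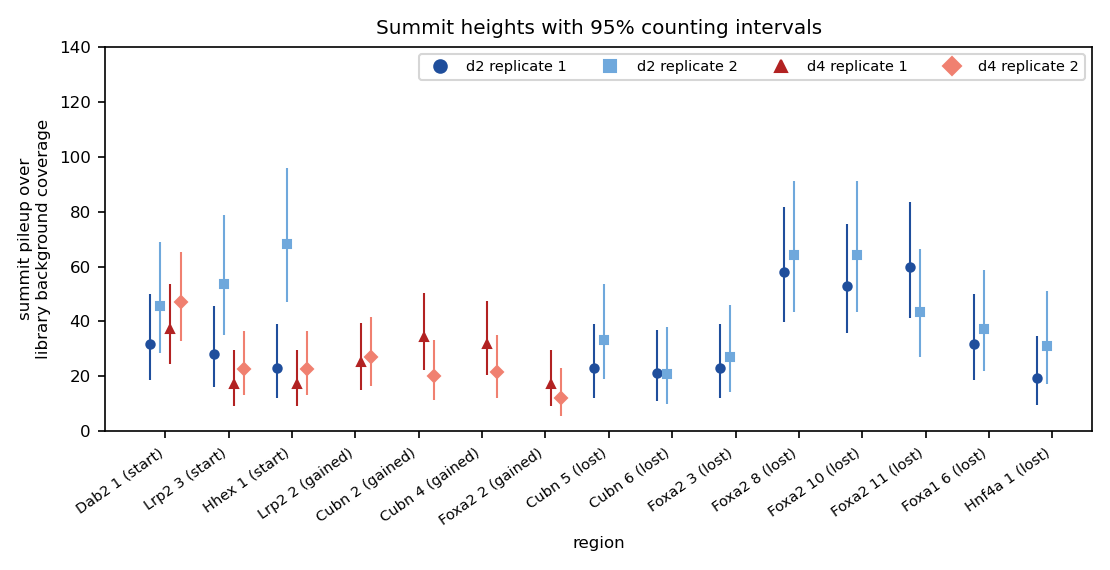
Summit pileup over the background coverage of the library (y axis, linear) for the gained and lost regions and for the 3 regions over a gene start (x axis), with 95% exact Poisson counting intervals as bars and 1 point for each library with a peak. Dab2 1 overlaps between days, the d4 points of Lrp2 3 lie below its d2 points, and the lost Foxa2 8 and Foxa2 10 stand above the Cubn regions.

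Foxa2 held the most regions of the 9 genes, 11, of which 4 were lost, 1 was gained and 6 had another pattern. No region there was called in all 4 libraries. Genes with at least 4 lost regions made up 0.266% of genes with a region. A gene with many regions can hold many lost ones, and among the 108 genes with 10 to 12 regions 11 had at least 4 lost, with a median of 2. The nearest coding neighbours of Foxa2 lay 668 kb and 348 kb away, so all 11 regions within 100 kb of its starts were assigned to it. Noncoding genes lie among them, and when transcript starts of any type were used Foxa2 had 1 lost and 0 gained regions. Its lost regions numbered 7 without d2 replicate 2, and its gained regions 2 without d4 replicate 2. With peaks of −log10 q of at least 10, or with the top 15000 peaks, Foxa2 had 3 lost and 0 gained regions.

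Foxa2 8 (chr2:148046307-148046737) lay in intron 1, 159 bp from the nearest annotated start. Its fold enrichments were 8.83 and 8.31 in the d2 libraries, on pileups of 33 and 31, and no peak was called at d4. Foxa2 10 (chr2:148053196-148053659), 6.23 kb upstream with an edge over the miRNA gene model Gm27420, had 10.8 and 10.9 at d2 on pileups of 30 and 31. Its 2 d2 summits fell on the same base. Foxa2 11 (chr2:148114709-148114892), 67.7 kb upstream, had the highest fold enrichment of the 33 regions, 14.6 in d2 replicate 1, and 10.3 in d2 replicate 2. Foxa2 3 (chr2:148022041-148022218), 23.7 kb downstream in intron 1 of the noncoding gene 9030622O22Rik, had 8.04 and 8.03. The d2 heights of Foxa2 8, Foxa2 10 and Foxa2 11 averaged 61.1 ± 4.31, 58.5 ± 8.04 and 51.6 ± 11.6 (SD, n = 2), above the 28.0 ± 7.24 and 20.9 ± 0.297 of Cubn 5 and Cubn 6. Carried to the d4 depth, the pileup of Foxa2 8 would be 43.2 to 48.5, of Foxa2 10 39.3 to 48.5 and of Foxa2 11 32.3 to 45.2. The smallest pileups called at d4 were 17, 12 and 11 over local backgrounds as high as theirs. As at Cubn, the ranges leave out counting error and the lower d4 heights of regions called in all 4 libraries.

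The gained region, Foxa2 2 (chr2:148013578-148013782, 32.2 kb downstream and also inside 9030622O22Rik), was weaker. It had fold enrichments of 7.11 and 5.73 at d4 on pileups of 13 (6.92 to 22.2) and 9 (4.12 to 17.1). Carried to the d2 depth, these pileups would be 5.85 to 9.78, against a smallest called pileup of 6, so the lower end fell just under what was called at d2. It held a GATA and a TEAD match. Of the 4 lost regions of Foxa2, Foxa2 10 held 2 GATA matches and the other 3 held none, and Foxa2 11 held a TEAD match. Foxa2 9, 1.60 kb upstream of the nearest start, was called in d2 replicate 1 and d4 replicate 2, with fold enrichments of 3.95 and 7.70.

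**Figure D4:**
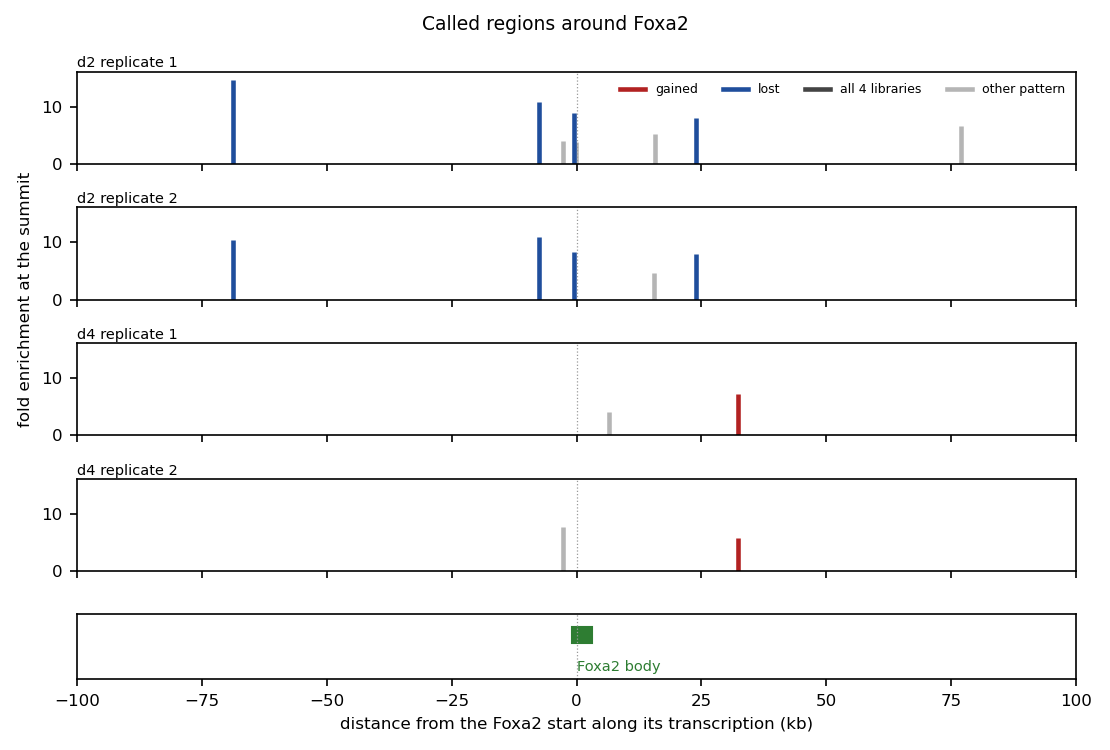
Fold enrichment at the summit (y axis) of every region called within 100 kb of Foxa2, by the distance of the region's midpoint from 1 of the 3 annotated starts of Foxa2 along the direction of transcription (x axis, kb), in 1 panel for each library, with the body of the gene as a green bar. The 4 lost regions (blue) stand in both d2 panels and the gained region (red) in both d4 panels.

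Foxa1, the other forkhead gene, held 6 regions, with 1 lost and none gained. Foxa1 6 (chr12:57549385-57549623), 3.26 kb upstream, had fold enrichments of 5.08 and 5.71 at d2, on pileups of 18 and 18. Foxa1 had 0 lost regions with peaks of −log10 q of at least 10 or with the top 15000 peaks. The 2 regions nearest to the start of Foxa1 were each called in 1 d4 library, Foxa1 4 in d4 replicate 2 at 5.04 and Foxa1 5 in d4 replicate 1 at 4.45. Foxa1 2, 6.83 kb downstream of the start, was called in d2 replicate 1 and in both d4 libraries. Within 1000 bp of a coding start of the gene itself, the peaks were thus at d4 for Foxa1 and at d2 for Foxa2. The 2 Foxa1 regions lay close together, and merging within 500 bp joined them, giving Foxa1 1 gained region.

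Hnf4a held 1 region, which was lost. It had 0 lost regions with transcript starts of any type, with peaks of −log10 q of at least 10, or with the top 15000 peaks. Hnf4a 1 (chr2:163535027-163535214), in intron 1 of the longest transcript and 11.97 kb from the nearest of its 4 coding starts, had fold enrichments of 5.92 and 9.30 in the d2 libraries on pileups of 11 and 15. Another 10 regions lay within 100 kb of a start of Hnf4a and were nearer to Fitm2, Gdap1l1, Oser1 or Ttpal. No region was called at a start of Hnf4a. Its window held no match to GATA, forkhead or HNF4.

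Afp held no region of its own by coding starts, but had 1 lost region when transcript starts of any type were used. The 3 regions within 100 kb of its starts were nearer to other genes. One of them (chr5:90507483-90507754) lay inside the body of Afp, 16.7 kb from its start, and was lost, with fold enrichments of 5.10 and 5.83 at d2 on pileups of 7 and 8, but it was nearer to Afm, a neighbouring gene of the same albumin family. These pileups were close to the smallest called at d2, 6. Carried to the d4 depth they would be 9.16 to 12.5, above the 7 that was the smallest called there. That range too leaves out counting error and the lower d4 heights of regions called in all 4 libraries.

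Hhex held 1 region, over its start, in all 4 libraries. Hhex 1 (chr19:37434365-37435604, 1240 bp wide) had fold enrichments of 5.69 and 11.1 at d2 and 5.67 and 6.57 at d4. Its heights were 22.9 and 68.3 at d2 and 17.2 and 22.9 at d4. The d2 libraries differed from each other 2.99-fold, with summits 795 bp apart and 3 peaks in d2 replicate 1, so the ratio of 0.439 of the d4 to the d2 mean rests on d2 replicate 2. Scaled to the median of regions called throughout, the days overlapped, at 0.591 and 1.22 at d2 and 0.520 and 0.708 at d4.

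All 4 gained regions were distal, as were 84.7% of all gained regions within 100 kb. Those of Cubn lay 84.2 and 77.8 kb from the start and those of Lrp2 and Foxa2 22.1 and 32.2 kb, with a median of 21.3 kb for all gained regions. Of the 8 lost regions 2 lay within 1000 bp of a transcript start of any gene, and their median distance was 14.8 kb, against 9.44 kb for all lost regions. The GC content of the gained windows was 43.5 to 50.0%, below the median of 51.0% of all distal gained regions. GATA matches were present in 10 of the 33 windows, or 30.3%, against 20.5% of all regions. They fell in 2 gained, 3 lost and 5 other windows and in none of the 3 windows called throughout. The pooled shares compare unlike mixes, since 31.9% of all regions were called throughout and promoters among those held GATA in 7.96%. Among distal windows, GATA matched 2 of 4 gained, 2 of 6 lost and 4 of 13 other ones. Over all distal regions of those calls the shares were 63.2%, 17.7% and 28.9%. A forkhead match was present in 1 window, against 3.85% of all regions, and none held a match to the HNF4 or HNF1 motif, which are rare in all regions (0.171% and 0% of them).

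Lists of related genes were set beside the 9 genes. The lists were chosen from textbook knowledge with results of these data already known. Other endoderm genes (24 genes, 19 with a region) held 57 regions, of which 12 were gained and 9 lost, shares of 21.1% and 15.8%. Sox7, a SoxF factor of primitive endoderm and endothelium, held 2 gained and 1 lost, Gsc, a homeobox factor of the organizer, 2 gained and 2 lost, Eomes, a T-box factor of mesendoderm, 2 gained and 1 lost, and Otx2, a homeobox factor of epiblast and anterior endoderm, 2 lost. The gained share of this list was above that of the 9 genes and the lost share below it. The shares of the 9 genes hold the regions Cubn was chosen for, and without Cubn they were 7.41% gained and 22.2% lost. No test was made of either difference.

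Over all regions 8.48% were gained and 13.2% lost. The other genes of the uptake route of cubilin and megalin (13 genes, 12 with a region) held 25 regions. Of these 1 was gained (4.0%), 2 were lost (8.0%) and 11 were called in all 4 libraries. Myo6, the motor that moves endocytic vesicles, held both lost regions. Parietal endoderm genes held 20 regions with 4 gained (20.0%) and 2 lost (10.0%), and all 4 gained ones belonged to Col4a1, which encodes a basement membrane collagen. Gained and lost calls near genes of the endoderm lists therefore went both ways. These genes do not mark endoderm alone, and the study counts Sox7 and Col4a1 among the marker genes of an endothelial cluster. The gained shares of these lists are thus not a measure of endoderm. Regions of mesoderm genes (28) and endothelial genes (29) included 4 and 2 gained and 0 lost, with 2 of the gained at Isl1, a factor of second heart field progenitors. The gained shares were 14.3% and 6.90%, so that of the endothelial genes lay below the share of all regions. Of the 29 endothelial regions 23 had another pattern, since a gained call allows no peak in either d2 list. The study, with tests on read counts, reported regions more accessible at d4 near several genes of this list. The share here is therefore not a measure of how far those genes opened. Regions of pluripotency genes (31) included 2 gained (6.45%) and 6 lost (19.4%), 2 of the lost at Klf4. Regions of neural genes (23) included 1 gained (4.35%) and 7 lost (30.4%), 3 of the lost at Sox1. The share of lost regions for the 9 genes, 24.2%, lay between that of the pluripotency list, 19.4%, and that of the neural list, 30.4%. That share holds the lost regions Cubn was chosen for, and without Cubn it was 22.2%. Since the lists were also chosen with results known, this order is a description only.

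**Figure D5:**
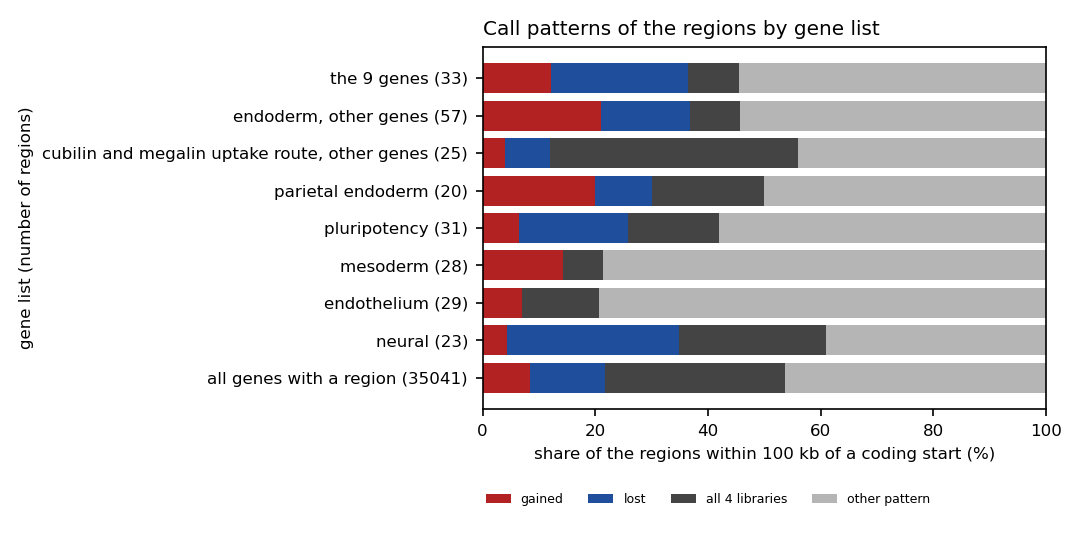
Share of regions by call pattern (x axis, %) for the 9 genes, 7 other gene lists and all genes with a region (y axis, with the number of regions in parentheses). The 9 genes had 24.2% lost and 12.1% gained regions, against 13.2% and 8.48% of all regions, and without Cubn 22.2% lost and 7.41% gained. Foxa2 alone held 4 of the 8 lost regions of the 9 genes.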

How the data were processed

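ATAC-seq peak lists of 2 d2 and 2 d4 libraries were analysed, grouped by their labels. The methods and the submitters' notes name FastQC for quality checks, cutadapt for trimming, Bowtie2 for alignment to mm10 and MACS2 for peaks, which the authors called in each library alone, without pooling or a control. In the deposited lists the fold enrichment is a linear ratio of pileup to local background at the summit, with a constant added to both. It is therefore lower than the plain ratio of the pileup to that background. Significance is held as −log10 p and as −log10 q from the authors' caller. The deposited score column was not used.

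Peaks overlapping by at least 1 bp were merged, and regions assigned to the nearest coding transcript start within 100 kb (GENCODE M 21, GRCm38, with older symbols matched through RefSeq). Pileup and background were solved from fold and p, and came out whole for 100% of peaks (to within 0.01 in −log10 p). Depth is coverage, not reads. The stated calling names both paired-end mode and a shift of reads, and which was applied is unknown, so a pileup counts fragments or reads. Python 3.11.15, numpy 2.4.6, pandas 2.3.3, scipy 1.17.1, pysam 0.24.0 and matplotlib 3.10.9 were used, and the scripts were tested on simulated data. The study's count tests need reads, which were not used here, so nothing was tested between days.

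The genes, lists and motifs were chosen with earlier results of these data known. The genes named were the 9 genes, up to 3 genes of each other list with the most gained and with the most lost regions, if at least 2, and the genes most like Cubn in their counts, up to 8 with ties taken alphabetically, of which some are not reported here. Genes outside that rule were named only as neighbours. Sequences shown were the gained and lost regions of Cubn and the best gained region of each other gene, with additions named as such. Alternatives were stricter peaks, another overlap, merging, starts of transcripts of any type, another distance, and leaving out each library.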

Additional observations from a re-analysis of the deposited data

How the results depend on the processing

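No paired analysis was possible because every result is a count or a value that comes from no test, and the labels do not say that equal replicate numbers share an experiment. Peaks of −log10 q of at least 10 left 13 regions, 4 lost, 1 called in all 4 libraries and 1 lost at Cubn, and the top 15000 peaks of each library left 14, 4, 1 and 1, since both hold fewer peaks. Transcript starts of any type left 5 lost regions and gave Cubn 4 gained ones. A limit of 50 kb left 2 gained regions, and 0 at Cubn, whose gained regions lie farther away. Leaving out each library in turn gave 29 to 32 regions, 4 to 7 gained, 8 to 14 lost and 3 to 4 called throughout, with 2 to 2 gained and 2 to 4 lost at Cubn. Lost regions numbered 14 without either d2 library, the lost regions of Cubn 4 without d2 replicate 1, and gained regions 7 without d4 replicate 2, since a call then needs fewer peaks. Scaling heights to the regions called in all 4 libraries, chosen after the data were seen, gave 1.58 for Dab2 and 0.727 for Lrp2. Of the alternatives, 63 values stayed within 1.5 times the main count or 1 SD and 18 moved. Depth bears on calls near the smallest pileup, as at Foxa2 2, which carried to the d2 depth would span 5.85 to 9.78, and its part there was not tested.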
